A study of Mus musculus with 6 samples.

Results

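Interleukins are secreted proteins through which leukocytes, epithelial cells and stromal cells signal to each other, and interleukin receptors are the membrane chains that bind them. Most receptors combine a chain that recognises the ligand with a chain that several ligands share. Shared chains give families their names. The gp130 protein encoded by Il6st serves IL-6, IL-11 and IL-27, the common gamma chain encoded by Il2rg serves IL-2, IL-4, IL-7, IL-9, IL-15 and IL-21, and Il1rap serves IL-1, IL-33 and IL-36. In the eye, the retinal pigment epithelium (RPE) is a monolayer that supports the photoreceptors, and the choroid beneath it is a vascular layer that holds fibroblasts, melanocytes, macrophages and mast cells.

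The genes described here are all rows of the deposited table whose symbol begins with Il and a digit, which gave 85 genes of the 33924 listed. They comprise 39 ligands, 41 receptor chains, 4 secreted antagonists or binding proteins (grouped as inhibitors) and 1 enzyme, Il4i1. RNA came from 3 young and 3 aged wild-type C57BL/6J mice, was extracted from RPE/choroid with both eyes of a mouse pooled, and was sequenced as poly(A)-selected libraries. Sample titles give ages of 1 to 2 months for the young and 20 to 24 months for the aged group. The study's methods give a slightly older young group, and the labels name males only whereas the methods name both sexes.

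The level used throughout is the authors' mean normalized count, a single value per gene averaged over all 6 libraries of both ages. It comes with no spread between mice, so the levels below carry no error and no test, and whether neighbours in an order of levels differ beyond such a spread cannot be said. The age groups were not compared here, since the other columns of the table are the authors' own comparison. Long transcripts collect more reads than short ones, so genes are compared with each other on a second scale, the mean normalized count divided by the length of the longest annotated transcript in kilobases, given in brackets as a value per kb. Ratios on this scale depend on the transcript length chosen. In RNA from whole tissue, few cells with much of a transcript and many cells with little of it give the same level.

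Defining markers of the labelled tissue were abundant. Of 6 RPE markers, 5 had mean normalized counts between 50958 and 397586, whereas Best1, a channel of the RPE, was at 81.8. Endothelial markers lay between 717 and 7369, macrophage markers between 1341 and 5719, and mast cell markers between 543 and 1059. T cell markers ranged from 2.40 for Cd3e to 145 for Cd3g, and B cell markers from 22.4 to 246. Transcripts of neighbouring tissues were also present, with rod markers between 16944 and 139449 and skeletal muscle markers between 35123 and 48944. Their part in the interleukin levels was not tested.

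Receptor chains passed the minimum of 10 mean normalized counts more often than ligands. Of the 41 receptor chains 38 passed it, or 92.7%, against 15 of the 39 ligands, or 38.5%, and 54.5% of the table as a whole, or 18479 genes. The longest transcript of a receptor chain had a median of 3498 bases and that of a ligand 1186 bases. This favours receptors if the count rises with length. With a minimum of 5 per kb instead, a choice made after seeing the data, 33 receptor chains and 21 ligands passed. The share of the whole table at that minimum was not computed. The 57 interleukin genes at or above 10 counts included 3 of 4 inhibitors and Il4i1. Those just inside were Il17rb at 10.9 and Il31ra at 11.1, and those just outside were Il6 at 8.13 and Il22 at 7.66.

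**Figure D1:**
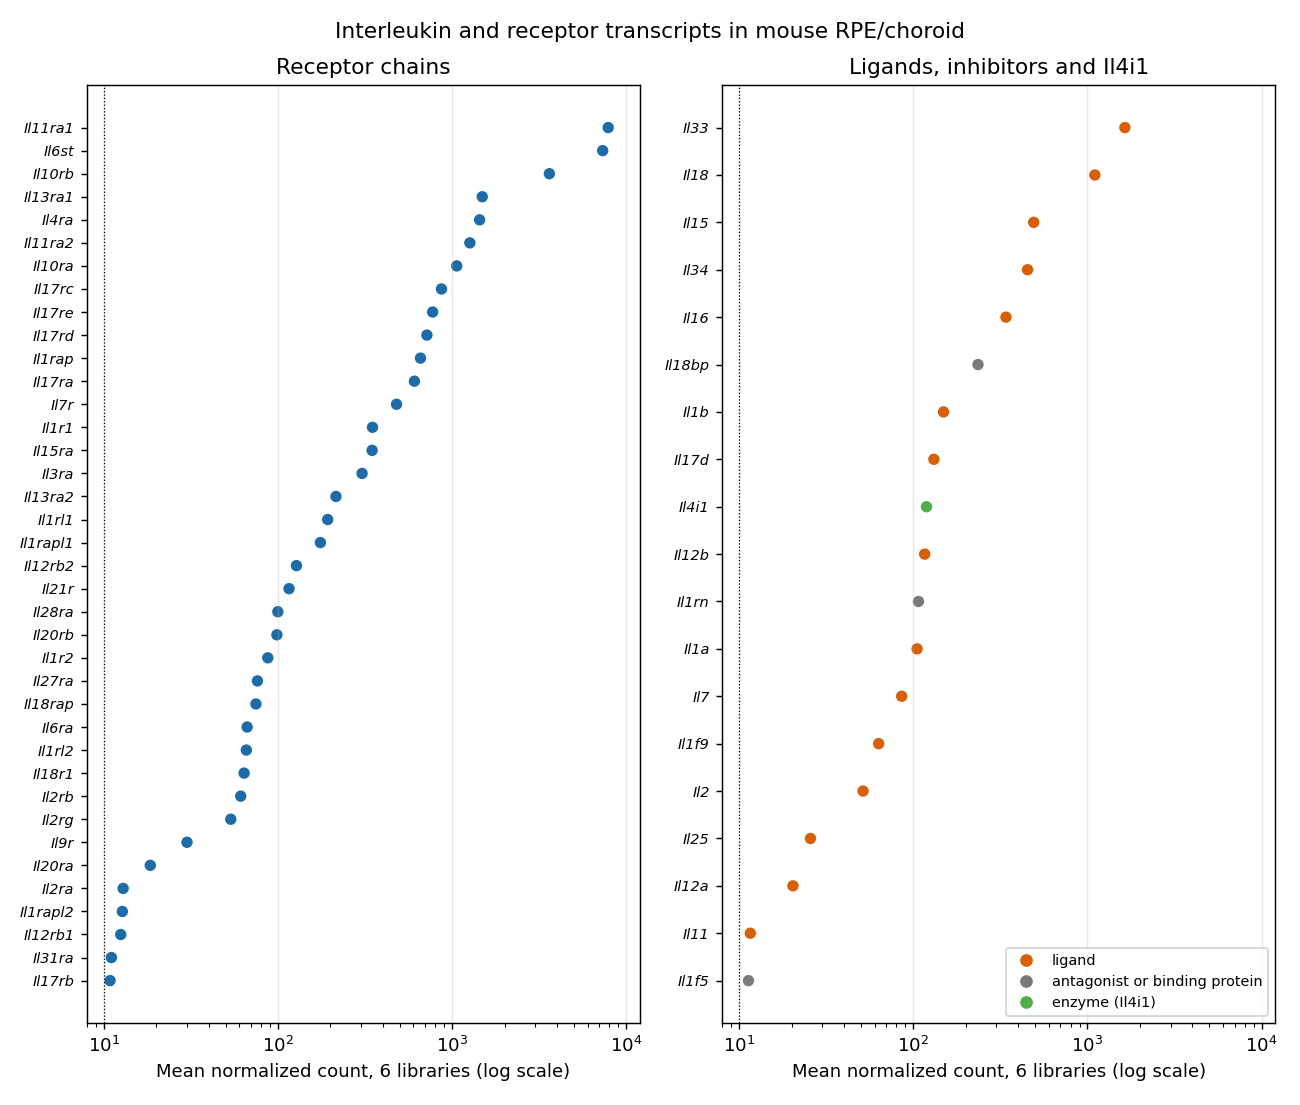
Mean normalized count over 6 libraries (log axis) of the 38 receptor chains on the left and of the 15 ligands, 3 inhibitors and Il4i1 on the right, 1 point per gene, with a dotted line at the minimum of 10. Before division by length, Il11ra1 at 7874 and Il6st at 7322 stand above all others, and the ligand with the most counts, Il33, is at 1639.5.

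Most of these genes were expressed below the median of the tissue. Per kilobase, the median was 59.8 for the 15 ligands and 44.5 for the 38 receptor chains, at percentiles 26.5 and 22.1 of all genes past the minimum, whose own median was 214 per kb. On the scale of the mean normalized count the order of the roles was the other way round, 116 for ligands and 152 for receptor chains. It was also the other way round per kilobase of the median transcript, 61.1 for ligands and 72.4 for receptor chains, so the roles have no settled order. Together the 85 genes held 0.0887% of all normalized counts, and 52.0% of that came from Il11ra1, Il6st and Il10rb, each of which encodes a receptor chain.

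**Figure D2:**
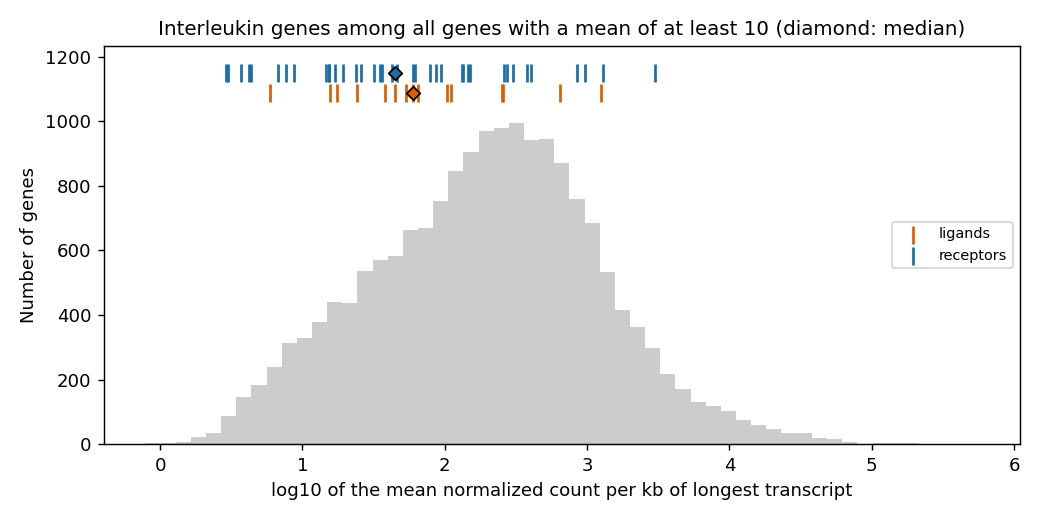
Histogram of the log10 mean normalized count per kb of the 17943 genes past the minimum with an annotated length, with a tick for each of the 15 ligands (orange) and 38 receptor chains (blue) and a diamond at each median. The medians, 59.8 and 44.5 per kb, both fall left of the peak of the histogram, and Il11ra1 at 3023 per kb is the tick farthest to the right.

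The IL-11 receptor had the most abundant chain and also the one whose gene is hardest to tell from its copies. Il11ra1 (ENSMUSG00000073889), which binds IL-11, was at 7874 (3023 per kb), the highest level on either scale. Mouse chromosome 4 carries near-identical copies of it, and the table lists Il11ra2 at a mean normalized count of 1264, Gm13305 at 1269.9 and Gm2002 at 1228. Gm13305 and Gm2002 are not interleukin symbols and were looked up after the level of Il11ra2 was seen, and the sequence of Gm2002 was not compared here. Gm13305 was at 100.4% and Gm2002 at 97.1% of the count of Il11ra2, so that these copies had nearly the same value.

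Over the 1296 coding bases of the annotated transcripts, Il11ra2 and Gm13305 had 0 differences, whereas Il11ra1 differed from each at 13 positions, an identity of 99.0%. Of the stretches of 50 bases in the Il11ra2 transcript 0% were found in no other gene, and in Il11ra1 53.7% were. The window of 70 coding bases in which Il11ra1 and Il11ra2 differ most holds only 3 differences, shown in capitals, and it is printed to show how little sequence separates these levels. It covers coding bases 993 to 1062 and was read from GENCODE transcripts on GRCm38, in the direction of transcription. In Il11ra1 the window lies at chr4:41767986-41768055 on the plus strand, in Il11ra2 at chr4:42657428-42657497 on the minus strand, and in Gm13305 at chr4:42160269-42160338 on the minus strand, each inside 1 coding exon.
Il11ra1: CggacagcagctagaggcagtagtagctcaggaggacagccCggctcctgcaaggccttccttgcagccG
Il11ra2: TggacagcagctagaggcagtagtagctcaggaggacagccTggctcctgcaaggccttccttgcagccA
Gm13305: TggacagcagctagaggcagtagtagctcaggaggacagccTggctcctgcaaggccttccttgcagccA

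The lines of Il11ra2 and Gm13305 are the same in every letter. A read from this window therefore cannot be placed in Il11ra2 rather than Gm13305, and the level of Il11ra2 is uncertain. Il11ra1 has sequence of its own, but part of its reads could likewise be assigned to the copies. Summed, Il11ra2, Gm13305 and Gm2002 came to a mean normalized count of 3762, below that of Il11ra1 alone.

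Among the receptor chains of gp130 cytokines, the shared chain was high and the private chains for IL-6 and IL-27 were low. Il6st was at 7322 (844 per kb), whereas Il6ra, which binds IL-6, was at 66.5 (7.70 per kb) and Il27ra, which binds IL-27, at 76.2 (26.0 per kb). Per kilobase, Il6st was 109.6 times Il6ra and 32.4 times Il27ra, and before division by length the latter ratio was 96.0. Il31ra, counted here although it pairs with the oncostatin M receptor chain and not with gp130, was at 11.1 (3.01 per kb) beside 3332 (607 per kb) for that partner, Osmr. Lifr, the receptor chain for leukemia inhibitory factor that also pairs with gp130, was at 4119.6 (427 per kb).

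The ligands of this family were close to the minimum of 10 or below it. Il11, a cytokine of stromal cells, was the 1 ligand past it, at 11.6 (5.95 per kb), and its receptor chain Il11ra1 was 508 times higher per kilobase. Il6, an inflammatory cytokine made by many cell types, was at 8.13 (3.47 per kb) and Il27 at 7.06 (6.91 per kb). Il31, a cytokine of T cells, was listed at 0. Among related ligands with other names, Ctf1, which encodes cardiotrophin, was at 638 (472 per kb) and Lif at 20.0 (4.96 per kb).

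Counted by family, all 6 receptor chains of the gp130 cytokines passed the minimum, and they held 53.8% of the summed receptor level per kilobase. With Il11ra1, Il11ra2 and Il2rg left out for sequence shared with other genes, a choice made after seeing the data, the family held 17.5%. Its first place per kilobase was lost in that case to the IL-10 family, with 33.1%, and the common gamma chain family, with 22.4%, was also above it. That order depends on the longest Il6st transcript of 8678 bases. With its median transcript of 2778 bases Il6st was at 2636 per kb, and family shares were not computed on that scale. Before division by length, Il6st alone at 7322 was above the 4898 summed over the IL-10 receptor chains. It was also above the 4245 summed over the common gamma chain receptors.

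In the IL-10 family, both chains of the IL-10 receptor were abundant and the cytokines were not. Il10rb, shared by the receptors for IL-10, IL-22 and the lambda interferons, was at 3618 (1296 per kb), and Il10ra, which binds IL-10, at 1063 (304 per kb). The more restricted chains were lower, with Il20rb at 98.6 (35.3 per kb), Il28ra at 99.9 (23.9 per kb) and Il20ra at 18.5 (8.79 per kb). Il22ra1, the chain for IL-22 in epithelia, was at 2.00 (0.779 per kb) and so below the minimum.

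Of the 7 ligands in this family 0 passed the minimum. Il10, an anti-inflammatory cytokine, was at 5.31 (4.05 per kb). Il22 was at 7.66 (6.90 per kb), and 41.0% of its stretches of 50 bases are shared with a second copy, Iltifb. The lambda interferon genes Il28a and Il28b had nearly equal mean normalized counts of 7.12 and 7.13, and share 31.7% and 38.8% of such stretches with each other. Il19, Il20 and Il24, which lie side by side on chromosome 1, were each listed at 0.

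The receptor chains of the common gamma chain family, with which Il13ra1 and Il13ra2 were counted although they do not pair with Il2rg, all passed the minimum, 10 of 10, over a wide range. The highest were Il13ra1 at 1489.9 (401 per kb) and Il4ra at 1439 (274 per kb), which together form the type II receptor for IL-4 and IL-13. Il13ra2, which binds IL-13 and is known as a decoy, was at 215 (94.4 per kb), so that Il13ra1 was 4.25 times higher per kilobase. Il2rg, the shared chain, was at 53.6 (32.1 per kb). Per kilobase Il4ra was 8.53 times Il2rg, although 27.5% of the stretches of 50 bases of Il2rg are shared with an overlapping gene model. The ratio was 26.8 before division by length and 16.1 with the median transcript.

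Among the other chains, Il15ra, which presents IL-15, was at 347 (150.0 per kb) and Il7r, the IL-7 receptor chain of lymphocytes, at 479.8 (136 per kb). Below them came Il21r at 116 (46.3 per kb), Il2rb at 61.2 (14.6 per kb) and Il9r at 30.1 (6.70 per kb). Il2ra, which marks activated and regulatory T cells, was at 12.9 (2.93 per kb), the lowest per kilobase of the 57 genes past the minimum.

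Ligands of the common gamma chain family were led by Il15, a cytokine that sustains natural killer and memory T cells, at 491 (257 per kb). Il7, made by stromal cells, was at 85.7 (17.6 per kb), and its receptor chain Il7r was 7.68 times higher per kilobase. Il2, a T cell cytokine, was at 51.4 (45.0 per kb). In the Il2 transcript 12.6% of the stretches of 50 bases also occur in transcripts of Ntan1, and whether reads of that gene enter the Il2 level was not tested. Il4, Il13 and Il21 were under the minimum at mean normalized counts of 3.75, 1.64 and 0.627, and Il9 was listed at 0.

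In the IL-1 family the ligands exceeded the receptor chains, with a summed level per kilobase of 2091 over 5 ligands and 374 over 9 chains past the minimum. Il18, which the inflammasome activates, was at 1102 (1245 per kb), and Il33, a nuclear cytokine released by damaged cells, at 1639.5 (644 per kb). Their order depended on the scale, as the longest Il18 transcript has only 885 bases. The neighbours Il1b and Il1a on chromosome 2 were at 149 (109.9 per kb) and 105 (53.2 per kb).

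The IL-1 family held 71.2% of the summed ligand level per kilobase. Its IL-36 members are expressed mainly in epithelia of the skin. Of these, Il1f9 was at 63.2 (38.4 per kb), while Il1f6 and Il1f8 were under the minimum at mean normalized counts of 5.53 and 4.29.

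All 9 receptor chains of the IL-1 family passed the minimum, yet they held only 4.13% of the summed receptor level per kilobase. Il1rap, the shared chain, was at 658 (146 per kb), and Il1r1, the signalling receptor, at 349 (60.0 per kb). The decoy Il1r2 was at 87.4 (61.6 per kb), close to Il1r1 per kilobase and lower before division by length. Il1rl1, the receptor for IL-33, was at 193 (36.4 per kb). Il33 was 17.7 times higher per kilobase, 8.49 times before division by length and 31.2 times with the median transcript.

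The chains of the IL-18 receptor were lower and nearly equal, Il18r1 at 63.9 (15.4 per kb) and Il18rap at 74.7 (15.3 per kb). Il18 was 81.0 times Il18r1 per kilobase, 17.2 times before division by length and 52.4 times with the median transcript. Il1rl2, which binds the IL-36 cytokines, was at 65.8 (16.8 per kb). Il1rapl1 and Il1rapl2, synaptic relatives of the family, were at 175 (19.2 per kb) and 12.8 (3.72 per kb).

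A row of 6 receptor genes of this family lies on chromosome 1 of GRCm38, from the start of Il1r2 at 40074079 to the end of Il18rap at 40551705. Read along the chromosome, the levels per kilobase were 61.6 for Il1r2, 60.0 for Il1r1, 16.8 for Il1rl2, 36.4 for Il1rl1, 15.4 for Il18r1 and 15.3 for Il18rap. On this scale Il1r2 and Il1r1 at one end were thus the highest, and the IL-18 receptor genes at the other end the lowest. This order did not hold on the other scales. Before division by length Il1r1 at 349 and Il1rl1 at 193 were the highest. With the median transcript Il1rl2 was the lowest, at 24.3 per kb. Il1rl1 ends 137 bases before Il18r1 begins.

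Natural inhibitors of the IL-1 family passed the minimum, at percentiles from 1.23 to 32.2 of the mean normalized counts of all genes past it. Il18bp, which binds and neutralizes IL-18, was at 235 (90.6 per kb). Il18 was 13.8 times higher per kilobase, 4.69 times before division by length and 8.72 times with the median transcript. Il1rn, the antagonist of the IL-1 receptor, was at 107 (41.9 per kb), which per kilobase was 0.381 times Il1b and 0.788 times Il1a. Its ratio to Il1b was 0.718 before division by length and 0.365 with the median transcript. Before division by length Il1rn and Il1a were nearly equal, at a ratio of 1.02, and with the median in place of the longest transcript Il1rn was 1.48 times Il1a, so their order is not settled. Il1f5, the antagonist of the IL-36 receptor, was at 11.3 (3.98 per kb). Il22ra2, which encodes a soluble receptor that neutralizes IL-22, was under the minimum at a mean normalized count of 0.695.

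The IL-17 family had 5 receptor chains past the minimum and mostly low ligands. Il17rc, part of the receptor for IL-17A and IL-17F, was at 869 (377 per kb), and Il17re, part of that for IL-17C, at 773 (263 per kb). They are neighbours on chromosome 6, separated by 669 bases. Il17rd was at 717 (86.6 per kb) and Il17ra, the chain shared by several IL-17 receptors, at 608 (78.4 per kb). Il17rb, the chain for IL-25, was at 10.9 (4.22 per kb), the lowest of the 57 genes before division by length.

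Among the IL-17 ligands, Il17d was at 131 (103 per kb) and Il25, an epithelial cytokine, at 25.7 (24.1 per kb). Il17c, Il17b and Il17f were under the minimum at mean normalized counts of 2.67, 0.650 and 0.627. Il17a, the main cytokine of Th17 cells, was listed at 0.

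In the IL-12 family, whose cytokines are made of paired subunits, Il12b (the p40 subunit shared by IL-12 and IL-23) was at 116 (59.8 per kb). Its partners were lower, Il12a at 20.4 (15.6 per kb) and Il23a at 1.35 (0.782 per kb). Per kilobase, Il12b was 3.83 times Il12a and 76.5 times Il23a.

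The IL-12 receptor chain Il12rb2 was at 128 (42.6 per kb), but 38.0% of its stretches of 50 bases occur on the opposite strand in transcripts of other genes, mainly Serbp1. The study's methods name a stranded kit for the rRNA-depleted RNA. Whether it also made the poly(A)-selected libraries, and whether the authors' quantification used strand, is not given in the sources used here. Il12rb1, shared by the receptors for IL-12 and IL-23, was at 12.5 (4.36 per kb). Il23r, the private chain of the latter, was at 4.69 (1.88 per kb) and so under the minimum.

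Outside these families, Il34 was at 453 (252 per kb) and Il16 at 340.4 (64.7 per kb). IL-34 shares the receptor Csf1r with CSF-1 and sustains tissue macrophages. Csf1 was at 1109.7 (266 per kb), so that Il34 was 0.408 times Csf1 before division by length and 0.949 times after it. Csf1r was 4.83 times Il34 per kilobase and 12.6 times before division. Il16 encodes a chemoattractant for CD4+ cells, and 15.5% of its stretches of 50 bases lie on the opposite strand of other genes, mainly Stard5.

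The common beta chain family was represented by Il3ra at 304 (131 per kb), with its partner Csf2rb at 439 (89.6 per kb). Il5ra, the eosinophil receptor chain for IL-5, was under the minimum at 7.09 (1.98 per kb), Il5 was at 3.77 (2.46 per kb) and Il3 was listed at 0. The enzyme gene Il4i1, which encodes an amino acid oxidase, was at 119 (52.3 per kb). Most of its stretches of 50 bases, 76.7%, are found on the opposite strand of other genes, mainly Tbc1d17.

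Receptor chains were then set side by side as the complexes they form, for 26 complexes drawn up from general knowledge. Every chain passed the minimum in 23 of them. The level per kilobase of the lowest chain was highest for IL-11, with Il6st at 844, then for IL-10, with Il10ra at 304, and for the type II receptor of IL-4 and IL-13, with Il4ra at 274. The order after IL-11 depended on the scale. The type II receptor came before IL-10 without division by length, with lowest chains at mean normalized counts of 1439 and 1063, and also with lengths of the median transcript, at 401 and 315 per kb. With the latter lengths the IL-3 receptor also came before IL-10, with Csf2rb at 354 per kb.

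Per kilobase, complexes that rest on a scarce private chain came last. For IL-2 the lowest chain was Il2ra at 2.93 per kb, or 12.8 per kb with the median transcript. For IL-5 it was Il5ra at 1.98 per kb and for IL-23 Il23r at 1.88 per kb. In the IL-23 receptor the shared chain Il12rb1 was also scarce, at 4.36 per kb. By its lowest chain IL-2 ranked 23 of 26 per kilobase, but 20 without division by length and 18 with the median transcript. IL-31 and IL-25 ranked below IL-2 on both of the latter scales. The IL-22 receptor had the widest gap of the 26, as the shared chain Il10rb was 1664 times the private chain Il22ra1 per kilobase. Chains of 1 complex need not come from the same cells.

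**Figure D3:**
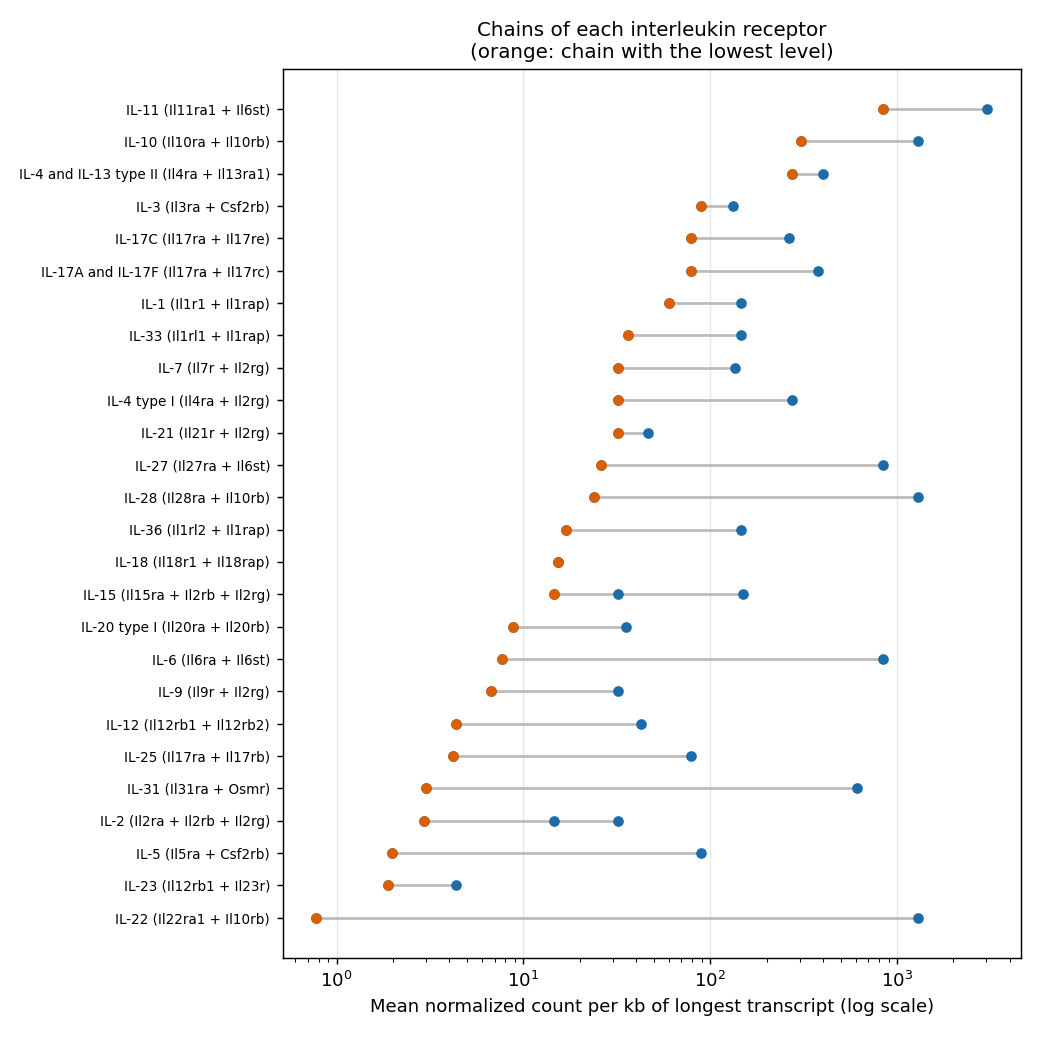
Mean normalized count per kb of longest transcript (log axis) of each chain of 26 interleukin receptors, 1 row per receptor, with a grey line joining its chains and the lowest chain in orange. IL-11, IL-10 and the type II receptor lie at the top with lowest chains of 844, 304 and 274 per kb, and IL-22 at the bottom spans 1664-fold.

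Genes that carry the signal inside the cell were mostly more abundant than the interleukin genes themselves. All 4 JAK kinases passed the minimum, from Jak3, the kinase of the common gamma chain, at 392 (96.7 per kb) to Jak1 at 6044 (1232 per kb). All 7 STAT factors passed. Stat4, which acts downstream of IL-12, was at 38.5 (12.9 per kb) and Stat6, the factor of IL-4 and IL-13, at 3121 (827 per kb).

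The feedback inhibitors of the SOCS family ranged from 138 (47.4 per kb) for Socs1 to 2754 (456 per kb) for Socs6, 8 of 8 past the minimum. The 12 adaptors of IL-1 and IL-17 receptors all passed, from 184 (59.3 per kb) for Irak3, an inhibitor of the pathway, to 4840.3 (1278 per kb) for Tollip. Medians per kilobase were 379 for JAK kinases, 474 for STAT factors, 231 for SOCS inhibitors and 321 for the adaptors, each above the 214 per kb of all genes past the minimum.

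For the lowest genes, a mean could be resolved into whole counts per library. These are taken to be the whole numbers that entered the authors' normalization, made from estimated transcript levels, and whether 1 count stands for 1 sequenced read is not given in the sources used here. A single count in 1 library adds a fixed amount to the mean, and 6 such amounts stood out in the table, between 0.157 and 0.174, matching the number of libraries. Each of the 13 interleukin genes with a mean above 0 and under 5 could be written as a sum of whole counts in exactly 1 way. Libraries are lettered A to F in rising order of that amount, and which mouse or age each one is was not determined.

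**Figure D4:**
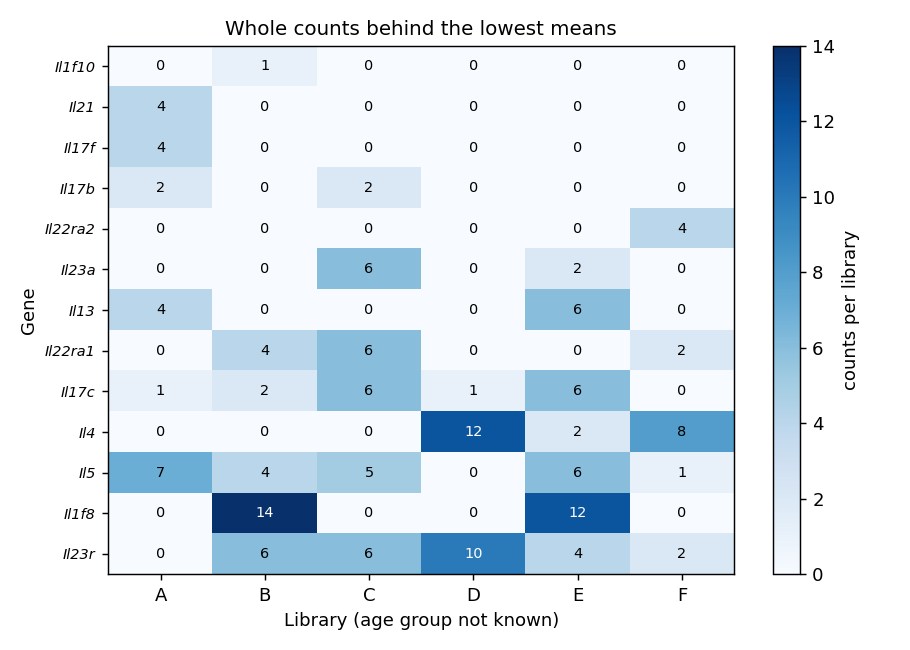
Whole counts in libraries A to F (columns, age group unknown) for the 13 interleukin genes with a mean above 0 and under 5 (rows), with the number in each cell and darker blue for more counts. Il17f, Il21, Il22ra2 and Il1f10 show counts in 1 library only, and Il23r, Il5 and Il17c in 5 of 6.

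These numbers show how few counts a listed level can rest on. Il1f10 had 1 count in library B and Il22ra2 had 4 counts in library F. The 4 counts of Il17f and the 4 counts of Il21 were all in library A. Il17b had 2 counts in A and 2 in C.

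Some genes with more counts were still uneven. Il1f8 had 14 counts in B, 12 in E and 0 in the other 4 libraries, so that its mean of 4.29 covers no library with a value near it. Il4 had 12 counts in D, 2 in E and 8 in F. Il13 had 4 counts in A and 6 in E, and Il23a had 6 in C and 2 in E. These T cell, epithelial and myeloid cytokines thus had counts in 2 or 3 of 6 libraries.

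Other genes at a like level were spread over more libraries. Il23r had 6, 6, 10, 4 and 2 counts in B to F and 0 in A. Il5 had counts in every library but D, and at most 7 in any. Il17c had counts in every library but F, and Il22ra1 had 4, 6 and 2 counts in B, C and F. The 13 genes had 1 to 28 counts each over the 6 libraries. Across all genes resolved in this way 69.6% of the library values above 0 were even.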

How the data were processed

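The authors trimmed and filtered the read pairs with BBDuk, aligned them by STAR to the GRCm38 transcripts of Ensembl release 82, estimated transcript levels with Sailfish 0.9.0, scaled these by total counts and ran DESeq2. The deposited table gives the authors' mean normalized count, a signal averaged over the libraries of 3 young and 3 aged mice, and 5 columns of their own comparison (log2 fold change, standard error, statistic, p-value and adjusted p-value), which were not used. No value per library is listed, so the total of each library is unknown and no test was made. The amount that 1 count adds to a mean differed little between libraries, from 0.157 to 0.174.

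Every gene matching the symbol rule was a member; members with a mean of at least 10 are named with their values, and the others once. The members, roles, pathway lists and markers were chosen with earlier results of these data known, and the receptor complexes were listed after the table was read.

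Lengths, positions and sequences came from GENCODE M21 (GRCm38), matched by symbol or RefSeq synonym for all 85 members and for 97.1% of the genes past the minimum. Shared sequence was measured over all stretches of 50 bases of a gene's transcripts, on both strands. Means under 5 were resolved into whole counts per library within a tolerance of 2e-08, which was tested on simulated data. All 648 genes tried in the whole table had a solution, 640 of them a single one, and 69.6% of their library values above 0 were even. Python 3.11.15 with numpy 2.4.6, pandas 2.3.3 and matplotlib 3.10.9 was used.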

Additional observations from a re-analysis of the deposited data

How the results depend on the processing

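No paired analysis was possible because each gene has 1 mean over all samples, and for the same reason no replicate could be left out. The numbers of ligands, receptor chains and inhibitors past the minimum stayed within 1.5 times under minimums of 5 and 50, with 22 and 12 ligands and 39 and 31 receptor chains. Counting any value above 0 gave 32 ligands in place of 15, and 25517 of the 33924 genes of the whole table in place of 18479. For the minimums of 5 and 50 the share of the whole table was not computed. A minimum of 5 per kb, chosen after seeing the data, gave 21 ligands and 33 receptor chains. With lengths of the median transcript in place of the longest, 8 of the 10 highest genes stayed among the 10 highest. Of 20 ratios between genes, 3 turned and 11 moved by over 1.5 times without division by length, and 3 turned and 12 so moved with the median transcript. Those that turned were Il1rn to Il1a and Il18 to Il33 under both, Il1r1 to Il1r2 under the former and Il34 to Csf1, at 1.27, under the latter. Among genes above 0 the ligand median was at percentile 25.9 and the receptor median at 44.9, as both sets of genes change.

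Without division by length, the shares of the summed receptor level were 53.8% for gp130, 15.9% for IL-10, 13.8% for common gamma chain, 9.65% for IL-17, 5.45% for IL-1, 0.986% for common beta chain and 0.455% for IL-12 receptors. With only genes of at least 80% own sequence, chosen after seeing the data, Il11ra1, Il11ra2 and Il2rg drop out. Per kilobase, the shares were then 17.5% for gp130, 33.1% for IL-10, 22.4% for common gamma chain, 16.1% for IL-17, 7.43% for IL-1, 2.61% for common beta chain and 0.933% for IL-12 receptors. Per kilobase of the longest transcript, the lead of the gp130 family over the IL-10 family thus rests on the IL-11 receptor genes. Family shares with the median transcript were not computed. Without division by length, Il6st alone at 7322 was above the 4898 summed over the IL-10 receptor chains.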
